A study of Homo sapiens with 47 samples.

Results

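The comparison described here is that of dCas9-p300(core) directed by the guide RNAs (gRNAs) of Pool 1 against the same fusion directed to the IL1RN promoter, the control in which none of the estrogen sites is targeted. Its members were chosen by the labels alone: all H3K27ac and RNA polymerase II (RNAPII) libraries with dCas9-p300(core) and Pool 1 or IL1RN gRNAs, which gives 8 of the 47 samples of the series, with 2 libraries per antibody and target. Both groups were Ishikawa cells, a line derived from an endometrial carcinoma, kept in hormone-depleted media for at least 5 days and then transfected with plasmids for the fusion and for the gRNAs, so both groups lacked estrogens and carried the activator. Each site was targeted by 4 gRNAs, and the cells were a transfected population of a single line rather than clones. The control cells therefore carried an active acetyltransferase at the IL1RN promoter, and a lower signal there in the Pool 1 libraries belongs to the design. The sources used here do not say whether replicates came from separate cultures, so p-values measure the spread between these libraries only, which may be technical.

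Pool 1 was listed in the labels and the methods as the estrogen receptor binding sites (ERBSs) MMP17-2, CISH-1, FHL2-2 and HES2-3. An earlier reading of these H3K27ac values placed FHL2-3 and HES2-2 in Pool 1 in place of FHL2-2 and HES2-3, and all 6 sites are therefore given. Because H3K27ac was used for that placement, H3K27ac at FHL2-3 and HES2-2 is a description and lends no support to it.

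p300 is a histone acetyltransferase that acetylates H3K27 at enhancers and promoters, and its catalytic core keeps this activity when fused to a catalytically dead Cas9. H3K27ac marks active regulatory regions, whereas RNAPII marks transcribed genes and, at lower levels, active enhancers. Estrogen receptor α is a ligand-activated transcription factor that binds the palindromic estrogen response element, and in endometrial cells it acts largely from promoter-distal sites. Of the genes near the sites, CISH encodes a suppressor of cytokine signalling, MMP17 a membrane-anchored matrix metalloproteinase, FHL2 a LIM-domain transcriptional cofactor and HES2 a basic helix-loop-helix repressor, and IL1RN encodes the interleukin-1 receptor antagonist.

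The sites of Pool 1 are shown first, because the later results turn on what was targeted and on what sequence lies there. In hg19, CISH-1 (chr3:50641718-50643718) was intergenic and lay 6487 bp downstream of the transcription start site (TSS) of CISH, and MMP17-2 (chr12:132287667-132289667) was intergenic and 24271 bp upstream of that of MMP17. FHL2-3 (chr2:106138390-106140390) was intergenic and 123882 bp upstream of FHL2. HES2-2 (chr1:6496329-6498329) overlapped exons of ESPN, 17350 bp upstream of HES2. FHL2-2 (chr2:106025380-106027380) lay within an intron of FHL2, 10872 bp upstream of its canonical TSS, and HES2-3 (chr1:6506685-6508685) overlapped exons and untranslated sequence of ESPN, 27706 bp upstream of HES2. The windows below run 5′ to 3′ on the forward strand of hg19, from 6 bp before the first to 6 bp after the last gRNA target, and the capitals mark the gRNA targets with their PAM, on either strand.
CISH-1, chr3:50642559-50642783: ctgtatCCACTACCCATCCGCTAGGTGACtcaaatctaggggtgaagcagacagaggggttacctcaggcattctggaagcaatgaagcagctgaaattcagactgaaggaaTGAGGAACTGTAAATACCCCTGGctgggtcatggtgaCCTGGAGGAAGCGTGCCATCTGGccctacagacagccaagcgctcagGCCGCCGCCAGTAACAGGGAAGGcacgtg
MMP17-2, chr12:132288551-132288689: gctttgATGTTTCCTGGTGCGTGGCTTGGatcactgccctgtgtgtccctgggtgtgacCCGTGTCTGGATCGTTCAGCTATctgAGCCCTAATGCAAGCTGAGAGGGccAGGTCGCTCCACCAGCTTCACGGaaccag
FHL2-3, chr2:106139172-106139471: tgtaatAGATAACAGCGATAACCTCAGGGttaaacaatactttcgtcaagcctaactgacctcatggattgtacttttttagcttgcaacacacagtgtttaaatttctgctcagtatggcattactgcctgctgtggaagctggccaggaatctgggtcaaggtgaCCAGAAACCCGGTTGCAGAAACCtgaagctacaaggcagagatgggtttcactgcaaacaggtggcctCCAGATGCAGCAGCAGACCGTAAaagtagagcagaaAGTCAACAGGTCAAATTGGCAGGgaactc
For HES2-2 the gRNA targets themselves are shown, with the PAM in capitals.
HES2-2 gRNA 1: tggtggaatactaacgagaaTGG
HES2-2 gRNA 2: tcagaccttctccggctggcTGG
HES2-2 gRNA 3: ccagctgtgcagaccgccgtGGG
HES2-2 gRNA 4: agcagagctcaccgcaggtcTGG
All 24 gRNAs of the 6 sites had 1 exact match on their chromosome, inside the 2000-bp region of their site. A perfect estrogen response element (GGTCANNNTGACC, which reads the same on both strands) occurred in 2 of the 23 regions of the signal table, CISH-1 and FHL2-3, and is in capitals here with 5 flanking bases on each side.
CISH-1, chr3:50642697-50642709: ggctgGGTCATGGTGACCtggag
FHL2-3, chr2:106139328-106139340: atctgGGTCAAGGTGACCagaaa
The closest match had 1 mismatch at FHL2-2, 2 at HES2-2 and HES2-3 and 3 at MMP17-2. The element of CISH-1 ended on the first bases of its gRNA 1 target, which starts at position 50642708.

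The libraries differed in reads within the 23 regions, and 1 control stood apart. These reads depend on enrichment as well as on total depth, which was not compared. The H3K27ac libraries held 613 and 1130 reads in the 23 regions with Pool 1 and 1753 and 1157 with IL1RN, if the smallest step of each library's values is 1 read. The corresponding RNAPII libraries held 3116 and 1449, and 819 and 2910. H3K27ac IL1RN replicate 1 had 18664 peaks against 4088 to 6687 in the other 3 libraries, and 75.9% of its peak intervals were found in none of them. Its peaks had a median fold enrichment of 18.7. The medians were 8.98 and 8.08 in Pool 1 replicates 1 and 2 and 8.17 in IL1RN replicate 2. Both replicate 1 H3K27ac libraries carried the same number prefix in their peak names and both replicate 2 libraries carried none. The labels do not say what this prefix stands for, and values are also given within each replicate number. The 4 RNAPII libraries shared 1 prefix. H3K27ac at the IL1RN promoter (chr2:113874426-113876426) was 0.423 and 5.37 in the IL1RN libraries against 0.162 and 0.463 with Pool 1, so the control libraries carried the higher value in both replicates. Signal throughout is the authors' read depth over a 2000-bp region, relative to the total depth of the library and to the average depth within peaks that the libraries of an antibody share.

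H3K27ac at CISH-1 and MMP17-2, the sites on which all sources agree, was higher in every Pool 1 library than in every control library. At CISH-1, the signal was 1.09 and 4.89 in the Pool 1 libraries against 0.0485 and 0.522 in the IL1RN libraries. The lowest Pool 1 value exceeded the highest control value, and the ratio was 22.4 in replicate 1 and 9.37 in replicate 2. These signals corresponded to 74 and 222 reads against 7 and 31. Over all 23 regions the median ratio was 1.92 in replicate 1 and 1.15 in replicate 2. At MMP17-2, the signal was 0.457 and 2.42 against 0.0832 and 0.320, with ratios of 5.49 and 7.57. Here too the groups did not overlap, although Pool 1 replicate 1 was only slightly above IL1RN replicate 2. Replicates of one group lay far apart at both sites, with replicate 2 the higher in each group. limma on the log2 scale gave a difference of 3.80 (standard error 1.36, adjusted p = 0.163) at CISH-1 and 2.65 (standard error 1.03, adjusted p = 0.163) at MMP17-2. With 2 libraries a group, 0 of the 23 regions (0%) passed an adjusted p of 0.05 with limma, and 4 (17.4%) had an unadjusted p below it, of which FHL2-3 and HES2-2 are no test because of how they were placed.

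The call at both sites changed when the number prefix of the peak names was added as a block. The labels name no sequencing run and do not say what the prefix stands for. Libraries without a prefix were treated as 1 block, which is an assumption. With this block, limma gave an adjusted p of 0.000467 at CISH-1 and 0.00505 at MMP17-2 for the same differences. In that fit 1 region (4.35%) passed downward, the IL1RN promoter (log2 difference -2.44, standard error 0.83, adjusted p = 0.0340), the control's own target. Without the block, this difference was -0.62 without IL1RN replicate 2, which holds the value of 5.37, -4.27 without IL1RN replicate 1 and -1.70 and -3.19 without Pool 1 replicates 1 and 2. Without IL1RN replicate 1, the control that stood apart, the difference was 2.14 at CISH-1 and 1.71 at MMP17-2 (adjusted p = 0.869 for both in limma, with the lone control assumed to vary like the other groups).

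FHL2-3 and HES2-2 had the pattern by which they had been placed in Pool 1. H3K27ac at FHL2-3 was 0.589 and 2.05 with Pool 1 against 0.0277 and 0.253 with IL1RN, with ratios of 21.2 and 8.11. At HES2-2 it was 0.619 and 1.65 against 0.118 and 0.354, with ratios of 5.25 and 4.67. The sites listed in the labels did not have it. FHL2-2 gave 0.103 and 0.485 against 0.0347 and 0.354, with the groups interleaved (limma log2 difference 0.96, standard error 1.56, adjusted p = 0.731). Its highest signal with dCas9-p300(core), 2.72, was in Pool 3 replicate 2. HES2-3 already carried H3K27ac in the control, with 4.79 and 1.80, and had 1.24 and 1.78 with Pool 1, lower in replicate 1 and nearly equal in replicate 2 (log2 difference -0.98, standard error 0.75, adjusted p = 0.543).

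**Figure D1:**
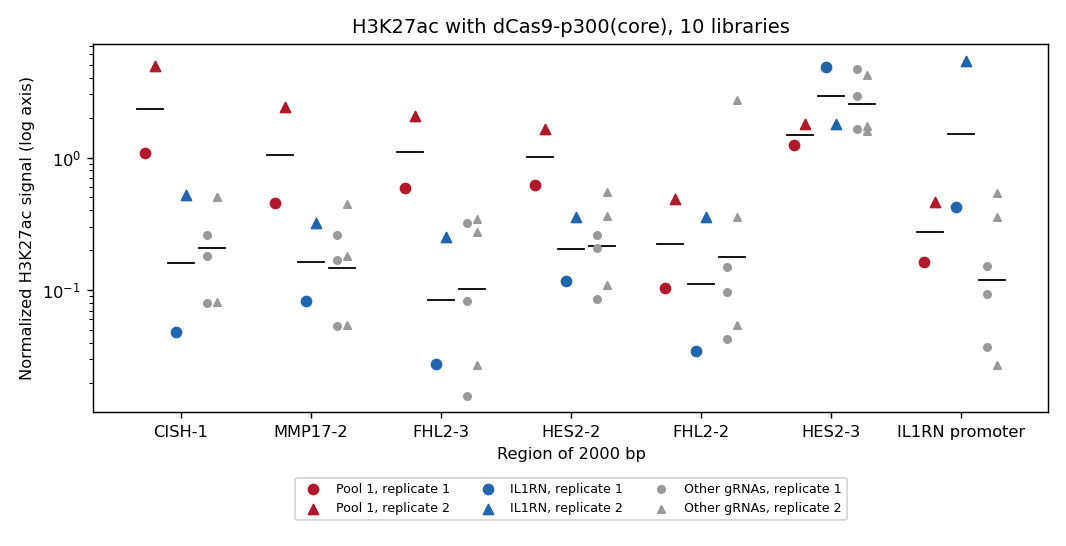
Normalized H3K27ac signal (log axis) in the 10 dCas9-p300(core) libraries at the 6 sites named for Pool 1 and at the IL1RN promoter; red is Pool 1, blue IL1RN and gray the 6 libraries with other gRNAs, circles are replicate 1, triangles replicate 2, and bars are geometric means. At CISH-1, MMP17-2, FHL2-3 and HES2-2 both red points lie above all others, while at FHL2-2 and HES2-3 they do not.

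Set against all other gRNAs, these 4 sites were alone among the 23 regions, but only CISH-1 and MMP17-2 were free to differ. Those near FHL2 and HES2 had been placed in Pool 1 by their signal in these libraries, so their order is a description and no test. The 4 sites were the regions (17.4%) in which both Pool 1 libraries exceeded both IL1RN libraries. They were also the 4 (17.4%) in which both exceeded all 8 other dCas9-p300(core) libraries. The 8 other libraries ranged from 0.0485 to 0.522 at CISH-1, with a median of 0.221, and from 0.0532 to 0.443 at MMP17-2, with a median of 0.174. A two-sided exact permutation test of the 2 Pool 1 libraries against those 8 gave p = 0.0444 at CISH-1 and MMP17-2, the smallest that this design allows, and 0.148 after adjustment over the 10 site tests made.

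RNAPII followed H3K27ac at 1 of the sites. At CISH-1, RNAPII was 0.438 and 0.420 in the Pool 1 libraries against 0.129 and 0.0868 in the IL1RN libraries, from 107 and 72 reads against 16 and 22. The Pool 1 replicates lay close together, at 3.39 and 4.83 times the control of the same number. limma gave a log2 difference of 1.98 (standard error 0.42, adjusted p = 0.00615), and CISH-1 was the 1 region of 23 (4.35%) to pass. The 8 other dCas9-p300(core) libraries ranged from 0.0596 to 0.218, all below both Pool 1 libraries (exact permutation p = 0.0444, the smallest possible, and 0.148 adjusted). The call depended on the scaling and on the libraries that set the spread: with each library also divided by its median over regions that neither pool targets, which moved the median of the 23 differences by -0.75, the difference was 1.22 (adjusted p = 0.599). It also missed the threshold when fitted to the dCas9-p300(core) libraries alone (adjusted p = 0.0821), to the 4 compared libraries alone (adjusted p = 0.313), or without Pool 1 replicate 1 (adjusted p = 0.0503). Without IL1RN replicate 2, 3 regions passed, CISH-1 with the MMP17 promoter and MMP17-3.

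The other sites gave no RNAPII difference beyond the spread. MMP17-2 had 0.234 and 0.449 with Pool 1 against 0.412 and 0.166, so that Pool 1 was below the control in replicate 1 and above it in replicate 2 (log2 difference 0.30, standard error 0.55, adjusted p = 0.898). Its difference turned to -0.45 under division by library medians. FHL2-3 had 0.0410 and 0.0641 against 0.0404 and 0.0276, a low signal throughout, with a difference of 0.56 (standard error 0.54, adjusted p = 0.823). HES2-2 had 0.352 and 0.157 against 0.202 and 0.138, and a difference of 0.49 (standard error 0.48, adjusted p = 0.823). FHL2-2 had 0.0328 and 0.0466 against 0.0566 and 0.0118, and HES2-3 had 1.73 and 1.1 against 0.945 and 2.41. In both of these the control replicates lay on either side of the Pool 1 libraries. The exact permutation test against the 8 other libraries gave p = 0.0889 at FHL2-3 and 0.267 at MMP17-2 and HES2-2 (0.222 and 0.381 adjusted).

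**Figure D2:**
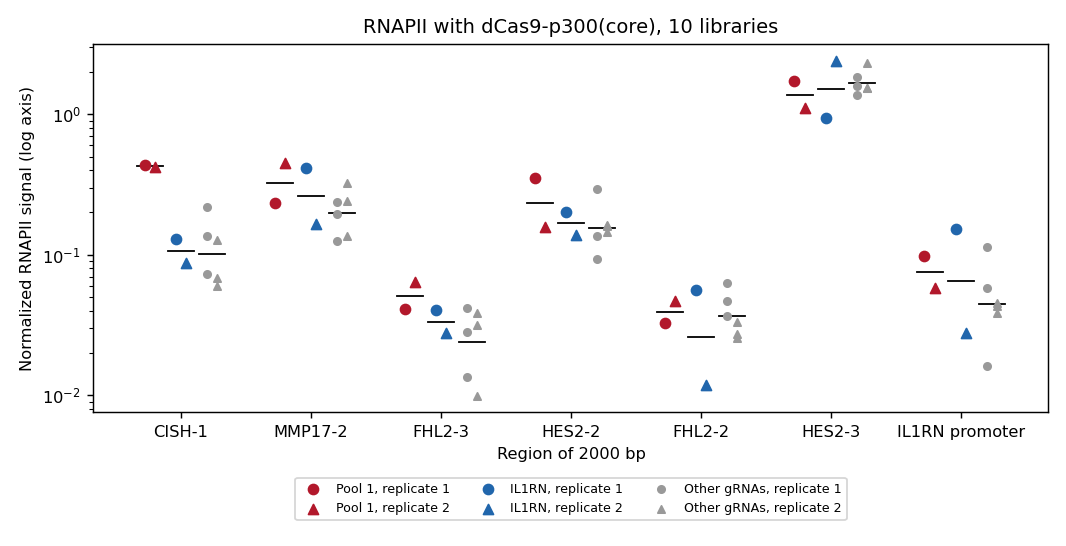
Normalized RNAPII signal (log axis) in the 10 dCas9-p300(core) libraries at the same 7 regions, with colors and symbols for Pool 1 (red), IL1RN (blue), other gRNAs (gray), replicate 1 (circles) and replicate 2 (triangles), and bars for geometric means. At CISH-1 the Pool 1 libraries, 0.438 and 0.420, lie together above the others; at MMP17-2 they interleave with the controls.

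The promoters of the 4 genes did not gain H3K27ac in the Pool 1 libraries. The CISH promoter had 0.206 and 0.485 with Pool 1 against 0.964 and 0.657 with IL1RN. That of FHL2 had 0.265 and 0.683 against 1.1 and 0.808, and that of MMP17 had 0.0736 and 0.353 against 0.527 and 0.354. In these 3 promoters both Pool 1 values were below both controls, although the MMP17 values of replicate 2 were nearly equal. They were among the 5 of 23 regions (21.7%) with that order, with HES2-3 and MMP17-B. The HES2 promoter had 0.515 and 1.21 against 1.83 and 0.960, so the replicates disagreed. The log2 differences were -1.32, -1.14, -1.39 and -0.74 for CISH, FHL2, MMP17 and HES2 (standard errors 0.72, 0.76, 1.29 and 0.86), and none passed in limma (adjusted p from 0.395 to 0.731). Without Pool 1 replicate 1 they were -0.71, -0.46, -0.29 and -0.13, without Pool 1 replicate 2 they were -1.93, -1.82, -2.49 and -1.36, without IL1RN replicate 1 they were -1.04, -0.92, -1.10 and -0.28, and without IL1RN replicate 2 they were -1.59, -1.36, -1.67 and -1.21. In replicate 2 alone the ratios were 0.738, 0.845, 0.997 and 1.26, and in replicate 1, which holds the control with 18664 peaks, they were 0.214, 0.240, 0.140 and 0.282. The part of that library in the promoter differences was not tested.

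RNAPII at the same promoters moved in opposite directions in the replicates. It was 1.43 and 0.915 with Pool 1 against 0.711 and 1.58 with IL1RN at CISH, 1.43 and 0.711 against 0.452 and 1.68 at HES2, 0.885 and 0.495 against 0.420 and 1.09 at FHL2, and 0.766 and 0.326 against 0.0889 and 0.746 at MMP17. All 4 ratios were above 1 in replicate 1, from 2.02 to 8.62, and below 1 in replicate 2, from 0.423 to 0.578. The libraries with more reads in the regions, Pool 1 replicate 1 and IL1RN replicate 2, had the higher value at each promoter. limma differences lay between -0.03 and 0.94 (adjusted p from 0.823 to 0.987). The IL1RN promoter had 0.154 and 0.0276 in its own libraries against 0.0983 and 0.0583, so RNAPII, unlike H3K27ac, did not stand higher in both control libraries.

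Of the 12 regions outside these sites and the promoters, 6 were ERBSs of other pools and 6 were regions adjacent to ERBSs. H3K27ac at these 12 was interleaved between groups or, at MMP17-B, lower with Pool 1 (0.0736 and 0.0881 against 0.166 and 0.135). Over all 23 regions, the mean ratio was above 1 at 10 of 12 ERBSs, 4 of 6 adjacent regions and 0 of 5 promoters. CISH-2, the ERBS nearest to CISH-1, had H3K27ac of 0.604 and 1.48 against 0.277 and 1.48, so that replicate 2 showed almost no difference, whereas the ratio at CISH-1 in that replicate was 9.37. On its other side CISH-A had 0.118 and 0.397 against 0.0485 and 0.337. CISH-B had 0.0884 and 0.353 against 0.0139 and 0.202 (limma log2 difference 1.58, standard error 1.09, adjusted p = 0.543). Its ratio was 6.37 in replicate 1, above those of MMP17-2 (5.49) and HES2-2 (5.25), and 1.74 in replicate 2. For RNAPII, 5 regions (21.7%) had both Pool 1 libraries above both controls, namely CISH-1, FHL2-3, FHL2-1, FHL2-A and MMP17-A, and 0 (0%) had both below. FHL2-A, an adjacent region in the FHL2 gene, was with CISH-1 one of the 2 (8.7%) above all 8 other libraries. Its RNAPII was very low, 0.0451 and 0.0466 against 0.0162 and 0.00395, where the last value is 1 step of its library (log2 difference 1.98, standard error 1.24, adjusted p = 0.823).

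**Figure D3:**
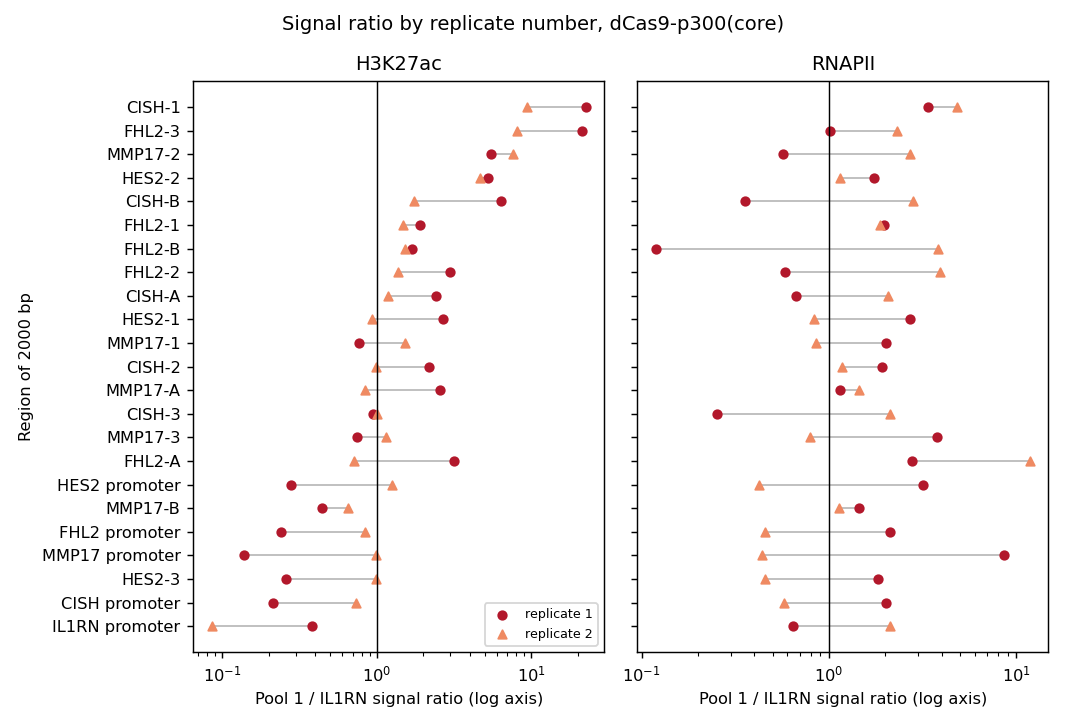
Ratio of Pool 1 to IL1RN signal (log axis) at each of the 23 regions, for H3K27ac (left) and RNAPII (right), with circles for replicate 1, triangles for replicate 2 and a line joining them. For H3K27ac the 4 uppermost regions have both ratios above 4, and for RNAPII only CISH-1 has both above 3.

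dCas9-VP16(10x), a fusion to 10 copies of the VP16 activation domain, was the most like comparison, with the same gRNAs and its own IL1RN control. At CISH-1, H3K27ac with that fusion was 0.570 and 2.88 with Pool 1 against 0.00628 and 0.156 with IL1RN, and at MMP17-2 it was 0.336 and 1.44 against 0.0188 and 0.156. The Pool 1 signal in dCas9-p300(core) libraries was higher at both sites in each replicate, and so was the control. The limma difference between the constructs' log2 changes was -1.18 at CISH-1 (95% interval -5.27 to 2.91, adjusted p = 0.931) and -0.88 at MMP17-2 (-3.99 to 2.23, adjusted p = 0.931). RNAPII at CISH-1 was 0.771 and 0.778 against 0.211 and 0.186 with dCas9-VP16(10x), a higher level in both groups than with dCas9-p300(core). The RNAPII changes differed by 0.03 (95% interval -1.24 to 1.29, adjusted p = 0.999) at CISH-1 and by -0.16 (-1.82 to 1.5, adjusted p = 0.999) at MMP17-2. At FHL2-3, RNAPII with dCas9-VP16(10x) was 0.223 and 0.164 against 0.0557 and 0.0604, and the difference between constructs was -1.09 (-2.72 to 0.54, adjusted p = 0.844). limma called 0 of 23 regions (0%) for either antibody, with 0 at an unadjusted p below 0.05. The H3K27ac column of dCas9-VP16(10x) Pool 1 replicate 2 carried a name that reads as p300, so the construct of that library is in doubt.

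**Figure D4:**
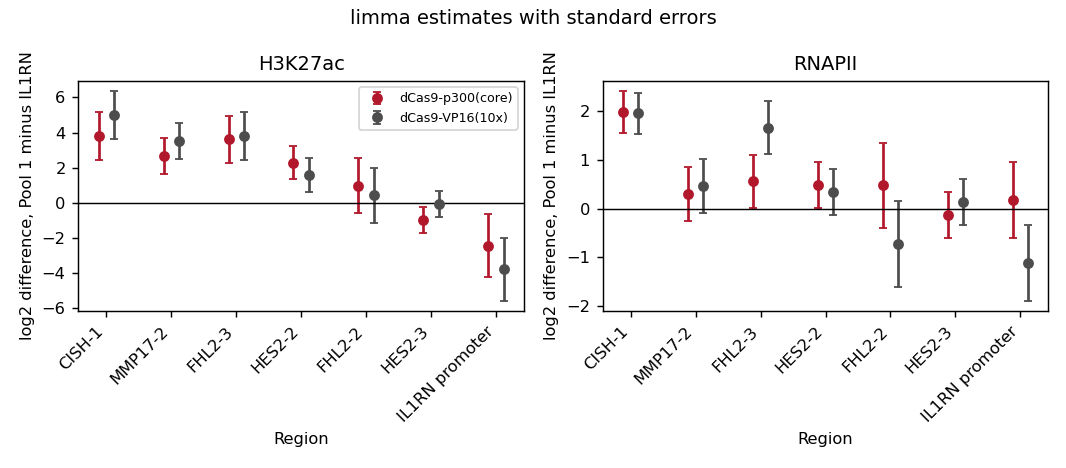
limma log2 difference between Pool 1 and IL1RN (points) with standard errors (bars) at 7 regions for H3K27ac (left) and RNAPII (right), for dCas9-p300(core) in red and dCas9-VP16(10x) in dark gray. The constructs' estimates at CISH-1, 3.80 and 4.98 for H3K27ac and 1.98 and 1.95 for RNAPII, lie within their standard errors of each other.

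Peak lists, called by the authors in each library separately, gave a second view of the sites. At CISH-1, H3K27ac peaks were present in both Pool 1 libraries, with fold enrichments of 11.6 and 13.6 and widths of 353 and 1835 bp, and in neither IL1RN library. By enrichment they ranked 1514 of 6687 and 196 of 4346 in their libraries. At MMP17-2, only Pool 1 replicate 2 had a peak, with an enrichment of 6.58 and a rank of 3484 of 4346. No dCas9-p300(core) H3K27ac peak lay at FHL2-3 or HES2-2 in these 4 libraries, whereas both dCas9-VP16(10x) Pool 1 libraries, which held 21001 and 28585 peaks, had peaks at all 4 sites. RNAPII peaks at CISH-1 were present in both Pool 1 libraries (enrichments 14.2 and 11.9) and in neither control, and their summits lay 13 and 35 bp from the centre of the nearest gRNA target. Of the 4 libraries compared, HES2-2 had an RNAPII peak in Pool 1 replicate 1 only. RNAPII peaks lay there also in dCas9-p300(core) Pool 2 replicate 1 and in both Pool 1 and both IL1RN libraries of dCas9-VP16(10x). HES2-3 had an RNAPII peak in all 4 libraries and an H3K27ac peak in both IL1RN libraries and Pool 1 replicate 2.

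Across the genome, few peaks were present in both Pool 1 libraries and absent in both controls. Of 21762 merged H3K27ac intervals, 299 (1.37%) had this pattern and 328 (1.51%) the reverse, while 1417 (6.51%) were in all 4 libraries and 16299 (74.9%) in 1 library. Of 41718 RNAPII intervals, 523 (1.25%) were in Pool 1 only and 52 (0.125%) in IL1RN only, and 10680 (25.6%) were in all 4. With equal numbers of peaks from each list the RNAPII counts were 163 in Pool 1 only and 80 in IL1RN only, and at a -log10 p of at least 20 they were 278 and 37. With at least 50% of an interval covered, the H3K27ac counts were 496 and 61. The counts rested on each library: without Pool 1 replicate 1, Pool 1 replicate 2, IL1RN replicate 1 and IL1RN replicate 2 in turn, 882, 1890, 661 and 694 H3K27ac intervals and 4339, 8011, 763 and 5297 RNAPII intervals met the pattern. Within 5 kb of the 23 regions there was 1 of the 299 H3K27ac intervals, CISH-1, and 2 of the 523 RNAPII intervals, CISH-1 and a 412-bp interval at chr3:50628874-50629285 (enrichments 10.4 and 11.4).

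The intervals were then looked up in the 16 other libraries of each antibody. Only CISH-1, among the 299 H3K27ac and again among the 523 RNAPII intervals, had a peak in all 4 Pool 1 libraries of both constructs and in none of the 16 libraries without Pool 1 gRNAs. The latter 16 hold the dCas9-p300(core) IL1RN libraries in place of the dCas9-VP16(10x) Pool 1 libraries. Presence in the dCas9-p300(core) Pool 1 libraries and absence from their IL1RN controls were fixed by how the intervals were selected. Only the remaining libraries were free to differ. The H3K27ac interval spanned chr3:50641698-50643532 and the RNAPII interval chr3:50642632-50642957. All other H3K27ac intervals of this class had a peak in at least 1 library with other gRNAs: the median was 10 of the 16 other libraries, 292 (97.7%) had a peak in both dCas9-VP16(10x) Pool 1 libraries and 248 (82.9%) in another dCas9-p300(core) pool. For RNAPII the median was 7 of 16, 161 (30.8%) were in both dCas9-VP16(10x) Pool 1 libraries, 518 (99%) in another dCas9-p300(core) pool and 2 in no other library. CISH-1 was also the 1 H3K27ac interval of the class (0.334%) that overlapped an RNAPII interval of the class.

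**Figure D5:**
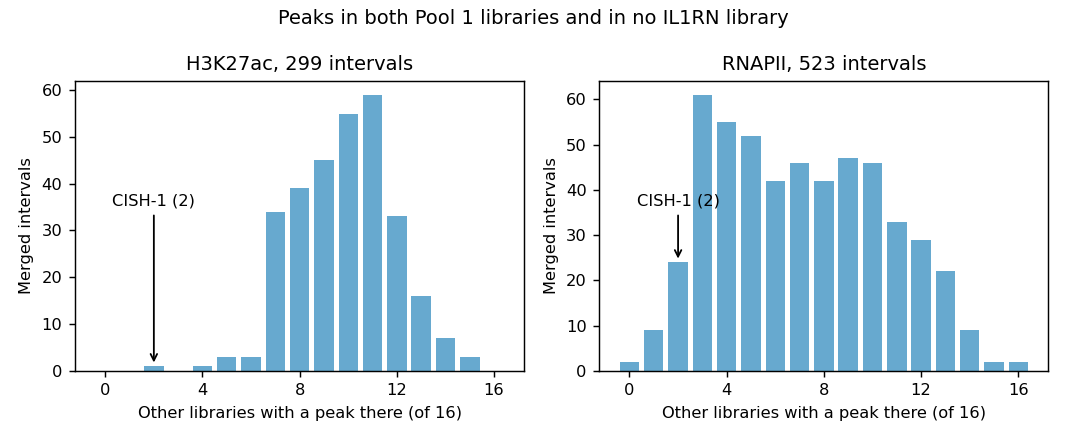
Number of merged intervals with a peak in both dCas9-p300(core) Pool 1 libraries and in no IL1RN library (vertical axis) by the number of the 16 other libraries of that antibody that also had a peak there (horizontal axis), for 299 H3K27ac (left) and 523 RNAPII (right) intervals. CISH-1 is marked at 2, which are the dCas9-VP16(10x) Pool 1 libraries; the medians are 10 and 7.

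In position and base content, the 299 H3K27ac intervals in Pool 1 only among the 4 libraries differed from the other classes. Of all 21762 intervals, 18383 had a peak in IL1RN replicate 1 and 13946 in that library alone. Values for all intervals therefore largely describe that control. Intervals in all 4 libraries lay at promoters in 60.1% and had a median GC content of 68.3%. The highest summit lay at a promoter (within 1 kb of a transcript start) in 64 of 299 (21.4%), against 85.4% of the IL1RN-only intervals and 57.5% of all. The median distance to a TSS was 23068 bp, and the median GC content of the 300 bp around the summit was 41.7%, against 73.0% for IL1RN-only and 70% for all intervals. Any RNAPII peak overlapped 29.1% of them, against 99.4% of IL1RN-only and 86.1% of shared intervals. The AP-1 motif TGANTCA, searched on both strands, was in 12% of these 300-bp windows. It was in 3.96% of IL1RN-only, 6.7% of shared and 4.01% of all H3K27ac windows. For RNAPII it was in 7.07% of Pool 1-only, 11.5% of IL1RN-only and 5.82% of all windows. Windows of equal GC content were not compared, so these shares do not separate the motif from base content. The estrogen response element was in 0 of 299 against 6 of all 21762 H3K27ac windows (0.0276%). RNAPII intervals were mostly distal in both the Pool 1-only and the IL1RN-only class. At promoters lay 54 of 523 (10.3%) and 1 of 52 (1.92%), against 37.1% of all intervals. The median distances to a TSS were 9245 and 18745 bp, and the median GC contents 60.7% and 54%. A seed of the gRNAs for MMP17-2, CISH-1, FHL2-3 and HES2-2, the 12 bases next to an NGG PAM, lay in 1 of the 523 RNAPII windows, that of CISH-1, and in 0 of the 299 H3K27ac windows. The H3K27ac interval of CISH-1 holds its gRNA targets and a perfect estrogen response element. Its highest summit lay 269 bp from the centre of the nearest gRNA target, so the 300-bp window missed both. The counts of 0 therefore hold for the windows and not for the whole intervals. These classes were set by peaks in libraries of unequal peak number and enrichment, and the part of these in their composition was not tested.

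The strongest H3K27ac intervals of Pool 1 away from the regions were ranked by the smaller of the 2 enrichments. They were nearest to ZNF608 (12.9 and 11.8), FBN2, which encodes fibrillin 2 (11 and 11.1), CDH18, a cadherin (10.7 and 11.1), PAX8, a Müllerian lineage transcription factor (10.5 and 11.6), PPP1R2C (17.3 and 9.88), the SLIT receptor gene ROBO1 (18.2 and 9.86), SNX19, SPIDR, the kinase gene CLK3 and the adhesion receptor gene ADGRL2. Of these 10, the intervals at PAX8 and ADGRL2 lay 5577 and 6798 bp from a TSS and the other 8 between 36934 and 430329 bp away. All 10 had peaks in both dCas9-VP16(10x) Pool 1 libraries and in 8 to 13 of the 16 other libraries. The reverse class was led by promoters of TCF3, VARS1 (a tRNA synthetase), SMC3 (a cohesin subunit), RAB28 and ZNF787, with enrichments of 32.6 to 80.8 in IL1RN replicate 1 and 13.3 to 16.6 in replicate 2, and all 5 had peaks in 14 of the 16 other libraries.

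RNAPII intervals of Pool 1 were led by those nearest to ABHD16B (23.8 and 19.5), LITAFD (15.4 and 14.2), AP5Z1 (17.2 and 13.3), the stress-inducible ZFAND2A (13 and 16.0), ZNF7, the cullin gene CUL7, PDIA4, which encodes an endoplasmic reticulum disulfide isomerase, L3MBTL2, the heat shock gene HSPA6 (11.7 and 15.5) and SELENOW. LITAFD was the only 1 of the 10 at a promoter, 118 bp from the TSS. HSPA6 had a peak in 3 of the 16 other libraries and the other 9 in 6 to 13. The reverse class held C1D, MARCHF2, APOL1, GIGYF1 and NFE2L1, with enrichments from 9.79 to 14.3.

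Promoters of gene lists were compared by their peaks in each library, in the order Pool 1 replicates 1 and 2 and IL1RN replicates 1 and 2. Over all 19798 protein-coding genes, H3K27ac promoters with a peak made up 15.1%, 10.8%, 56.2% and 10.6%, and those in Pool 1 only made up 0.187% and in IL1RN only 1.59%. RNAPII promoters with a peak made up 68%, 57.9%, 46.5% and 66.5%, with 0.141% in Pool 1 only and 0.00505% in IL1RN only. Of the 21 estrogen-responsive genes, 1, 2, 13 and 2 had an H3K27ac peak and 14, 12, 9 and 15 an RNAPII peak, with 0 in Pool 1 only for either antibody. Of the 14 immediate early genes, the counts were 5, 2, 13 and 3 for H3K27ac and 13, 12, 11 and 13 for RNAPII. Of the 15 interferon-stimulated genes, 1, 0, 3 and 0 had H3K27ac and 6, 4, 3 and 3 RNAPII, and IRF9, a subunit of the interferon-activated ISGF3 factor, had RNAPII in Pool 1 only. For H3K27ac, IL1RN replicate 1, the library with the most peaks, had the highest count in each of these lists, as over all genes.

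The 14 protein-coding genes with a transcript start within 100 kb of MMP17-2, CISH-1, FHL2-3 or HES2-2 had most H3K27ac peaks in IL1RN replicate 1. H3K27ac peaks were at 0, 2, 13 and 3 of their promoters and RNAPII peaks at 14, 12, 9 and 14. For this count a promoter was the surrounding 1 kb of any annotated transcript start, and HES2 and ESPN, counted in Pool 1 replicate 2 and both controls, have starts near HES2-1 and HES2-3. In replicate 2 of both groups the peaks lay in those ERBS regions, with none in the HES2 promoter region itself. H3K27ac was at SFSWAP, a splicing factor gene, in the controls only. None of the 14 had a promoter peak in both Pool 1 libraries and neither control, for either antibody. CISH, FHL2 and MAPKAPK3 promoters had RNAPII in all 4 libraries. That of MMP17 had it in Pool 1 replicate 1 and IL1RN replicate 2. In each group this library held more reads in the 23 regions.

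Lineage markers were checked in the same way. RNAPII was at all 10 epithelial promoters, among them KRT8, EPCAM and CDH1, in each of the 4 libraries, and at 4, 4, 3 and 4 of the 4 Müllerian ones (PAX8, SOX17, EMX2 and HOXA10). H3K27ac was at 8, 6, 10 and 7 epithelial promoters and at 2, 1, 4 and 3 Müllerian ones, with HOXA10 in the controls only. Stromal promoters had RNAPII at 3, 1, 1 and 2 of 8 and H3K27ac at 0, 0, 1 and 0, and the 5 blood markers had neither. Of the 3 endothelial markers 2 were matched, with RNAPII at 1, 0, 0 and 1 promoters and H3K27ac at 0 in each library.

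Peaks shared by all 4 libraries gave no call between the targets. limma on the log2 fold enrichment, centred on each library's median, called 0 of 1417 H3K27ac intervals (0%) and 0 of 10680 RNAPII intervals (0%), with the smallest adjusted p at 0.772 and 1.00. Unadjusted p-values below 0.05 made up 5.01% and 0.309%. Among H3K27ac intervals, the standard deviation of the log2 difference was 0.573 between the Pool 1 replicates and 1.42 between the IL1RN replicates. Between replicate 2 of Pool 1 and replicate 2 of IL1RN it was 0.379, less than between replicates of either target, and between replicate 1 of both it was 1.54, more than either. Without IL1RN replicate 2, limma called 766 H3K27ac intervals, 538 higher and 228 lower with Pool 1, when the lone control was IL1RN replicate 1.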

How the data were processed

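ChIP-seq for H3K27ac, RNAPII and the HA tag of dCas9 was done in Ishikawa cells. Per the labels and the methods, the authors aligned reads to hg19 with Bowtie 1.1.2 (unique alignments), removed duplicates with SAMtools, counted reads per region with bedtools and called peaks in each library with MACS2 2.1.0.20140616. The deposited table holds normalized signal for 23 regions of 2000 bp, in which the authors divided reads by total depth and by the average depth within overlapping peaks (HA: by control promoters). Of its 47 columns, 4 were not used, HA libraries of dCas9-VP16(10x) that lie outside the comparison. The deposited peak lists give fold enrichment over background as a ratio and -log10 p-values, and the lowest -log10 p in the 8 lists was 10.0007. Libraries were grouped by their titles. Reads per region were taken from the smallest step of each column, of which the values were whole multiples within 0.02. Where not all values of a column fitted, only those up to its median were held to this limit. Intervals and tests on counts were not made.

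limma 3.58.1 (R 4.3.3) was fitted to log2(signal + pseudocount) of all 20 libraries of an antibody, with 1 mean per construct and pool. The pseudocount was the smallest value above 0 (0.00415 for H3K27ac and 0.00395 for RNAPII), and p-values were adjusted by Benjamini-Hochberg over 23 regions. Fold changes on this scale understate those of low regions. Exact permutation tests were two-sided. Peaks overlapping by at least 1 bp were merged with Python 3.11.15. Away from the regions (over 5 kb), the 10 intervals per antibody with the highest smaller enrichment were named by the nearest protein-coding TSS, with 5 of the reverse class. Gene models and sequence came from GENCODE on GRCh37, the build of the files, and gRNA sequences from the study's design. The scripts were tested on simulated data. Members and gene lists were chosen with earlier results of these data known. Alternatives covered the pseudocount, scaling, filters, controls, blocks and left-out libraries.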

Additional observations from a re-analysis of the deposited data

Results flagged for a closer look

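HA libraries, which mark the fusion itself, enter none of the comparisons above. They were flagged because their signal at the 6 sites named for Pool 1 stood above that of the control. All regions adjacent to ERBSs, which these gRNAs do not target, also stood above it in both libraries, while no promoter did. MMP17-B had 1.32 and 1.25 (control 0.431), FHL2-A 1.84 and 1.07 (control 0.305) and MMP17-A 0.789 and 0.536 (control 0.508). A value above this control therefore does not by itself mark a targeted site. The 2 libraries with dCas9-p300(core) and the gRNAs of all 12 ERBSs had HA signals of 14.2 and 19.5 at CISH-1 (mean 16.8) against 1.52 in the single control, dCas9-VP16(10x) at IL1RN. MMP17-2, also in Pool 1 by all sources, had 8.42 and 14.8 (mean 11.6, control 0.406). Of the sites placed in Pool 1 by H3K27ac, FHL2-3 had 6.32 and 4.64 (mean 5.48, control 0.279) and HES2-2 had 0.789 and 3.04 (mean 1.91, control 0.431). Of the sites listed in the labels, FHL2-2 had 4.21 and 9.46 (mean 6.84, control 0.330) and HES2-3 had 6.05 and 15.2 (mean 10.6, control 2.31). CISH-1 thus had the highest HA signal of the 6 sites in both libraries and HES2-2 the lowest in both. Among all 12 ERBSs, MMP17-3 (17.4 and 27.3), HES2-1 (15 and 27.5) and CISH-2 (16.3 and 20.9) were above CISH-1 in both. These libraries carried every pool at once, so the values do not say which of the sites were in Pool 1. The control differs in its fusion, has no replicate, and was not tested against.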

How the results depend on the processing

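The number of H3K27ac regions past the threshold was 0 of 23 as reported. It was 2 with 10 times the pseudocount, 4 with each library also divided by its median and 3 against all other dCas9-p300(core) libraries. With the replicate number as a block (replicate block) it was 4, and with the number prefix of the peak names as a block 5. All but the IL1RN promoter in the last were among CISH-1, MMP17-2, FHL2-3 and HES2-2, of which the latter pair was placed by these values. Leaving out 1 library at a time gave 0 to 0. RNAPII, with 1 region, gave 0 under median division, 0 fitted to the dCas9-p300(core) libraries and 0 fitted to the 4 compared, where fewer samples set the spread, and 0 to 3 with 1 library left out. The replicate block kept the RNAPII call at 1. The labels do not say that replicate numbers pair libraries; deviations of same-numbered libraries correlated at 0.463 for H3K27ac and -0.575 for RNAPII over the 23 regions. With the RNAPII numbers crossed, an alternative chosen after seeing the data, 2 regions passed in the 4 libraries against 0 with the uncrossed replicate block. The count for the difference between constructs was 0 to 2 for RNAPII with 1 library left out (MMP17 promoter and MMP17-3, without IL1RN replicate 2 of dCas9-p300(core)) and 0 otherwise.

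Intervals in Pool 1 only numbered 496 for H3K27ac when at least 50% of the interval had to be covered, and for RNAPII 278 at a -log10 p of at least 20 and 163 with equal numbers of peaks. With 1 library left out they ran from 661 to 1890 for H3K27ac and from 763 to 8011 for RNAPII, where dropping a library relaxes the rule by construction, and calls at shared H3K27ac peaks from 0 to 766. Centring, the trend and the replicate block left shared peaks at 0 calls for both antibodies. The exact permutation tests kept 3 unadjusted results under 0.05 at both other pseudocounts; leaving out a library would put p below 0.05 out of reach, and these tests were not run.

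Directions of log2 differences turned as follows. For H3K27ac, the IL1RN promoter became 0.25 against all other dCas9-p300(core) libraries, of which only 2 are IL1RN libraries. Under median division, RNAPII became -0.45 at MMP17-2, -0.27 at HES2-2, -0.21 at FHL2-2, -0.13 at FHL2-3, -0.56 at the HES2 promoter, -0.56 at the IL1RN promoter and -0.66 at the CISH promoter. Against all other dCas9-p300(core) libraries, RNAPII became -0.19 at the HES2 promoter and -0.041 at the CISH promoter. The RNAPII difference between constructs at CISH-1 became -0.10 with 10 times the pseudocount. With 1 library left out, ranges crossing 0 were -0.64 to 2.56 for H3K27ac at FHL2-2, and for RNAPII -0.34 to 0.95 at MMP17-2, -0.084 to 1.06 at HES2-2, -0.49 to 1.45 at FHL2-2, -0.80 to 0.54 at HES2-3, -0.46 to 0.69 at the CISH promoter, -0.72 to 0.65 at FHL2, -0.73 to 1.15 at HES2, -0.57 to 2.44 at MMP17 and -0.98 to 1.34 at IL1RN. Differences between constructs ran from -3.15 to 0.79 (CISH-1) and -2.28 to 0.52 (MMP17-2) for H3K27ac and from -0.25 to 0.31 and -0.80 to 0.49 for RNAPII. Apart from the cases where fewer samples or the setting's construction account for it, the cause was not tested. H3K27ac at CISH-1, MMP17-2, FHL2-3 and HES2-2 and RNAPII at CISH-1 kept their direction under every alternative run.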
